A study of Mus musculus with 2 samples.

Results

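The mRNAs of the cytosolic ribosomal proteins were compared in whole skin of 3-day-old C57BL/6 mice. The genes were taken by symbol, as Rps or Rpl followed by the standard number or letter (with the suffixes a, al, l and x) plus the stalk genes Rplp0 to Rplp2 and Rpsa, which gave 83 of the 44166 genes of the deposited table. They comprise 32 small subunit and 51 large subunit symbols. Symbols outside this pattern, such as Rps3a1, Fau and Rack1, are given separately. The skin was of the genotype RNF31fl/fl-K14-cre in the library labelled KO and wildtype in the library labelled WT, with 1 library each. Rnf31 encodes HOIP, the enzyme that joins ubiquitin into linear chains. The K14-cre transgene uses a keratin promoter of basal keratinocytes, so the cells of whole skin outside that lineage keep intact floxed alleles. How many animals each library holds is not stated in the labels. KO and WT in brackets after a value name the label of the library it comes from.

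Each cytosolic ribosome is built from a small subunit, which reads the mRNA, and a large subunit, which joins amino acids. Nearly every ribosomal protein is needed in a single copy per ribosome, and its mRNA is among the most abundant of growing cells. Many of these mRNAs start with a run of pyrimidines at the 5′ end (a terminal oligopyrimidine, or TOP, tract), through which mTORC1 and the protein Larp1 control their translation. Skin is sensitive to the dose of ribosomal proteins: mouse mutants of Rps19, Rps20 and Rps6 have dark skin, and an Rpl38 mutant has a short tail and an altered axial skeleton.

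Start-site sequences are shown for genes with a long pyrimidine run (Rpl38, Rps6, Rpl28, Rps10, Rpl13a), for the gene with the highest ratio between the libraries (Rps27) and for a pair with low ratios (Rps7, Rpl39l). Each stretch runs from 50 bases before the RefSeq start to 25 bases from it, in GRCm38.p6, 5′ to 3′ on the gene's strand, with the longest unbroken run of C and T near the start in capitals. Where runs of the same length tie, as in Rps7, only the first is marked. Rpl38 lies at chr11:114668530-114668604 (plus strand), Rps6 at chr4:86857343-86857417 (minus), Rpl28 at chr7:4792915-4792989 (plus) and Rps10 at chr17:27635220-27635294 (minus). Rpl13a lies at chr7:45128721-45128795 (minus), Rps27 at chr3:90213624-90213698 (minus), Rps7 at chr12:28635929-28636003 (minus) and Rpl39l at chr16:10170178-10170252 (plus).
Rpl38: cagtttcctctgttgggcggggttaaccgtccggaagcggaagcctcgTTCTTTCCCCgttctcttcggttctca
Rps6: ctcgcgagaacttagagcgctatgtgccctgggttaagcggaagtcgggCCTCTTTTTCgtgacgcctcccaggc
Rpl28: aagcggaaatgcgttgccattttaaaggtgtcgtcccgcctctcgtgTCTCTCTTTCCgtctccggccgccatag
Rps10: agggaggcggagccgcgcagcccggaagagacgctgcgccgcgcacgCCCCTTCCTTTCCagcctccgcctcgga
Rpl13a: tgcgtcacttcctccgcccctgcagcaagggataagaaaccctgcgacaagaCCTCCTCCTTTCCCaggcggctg
Rps27: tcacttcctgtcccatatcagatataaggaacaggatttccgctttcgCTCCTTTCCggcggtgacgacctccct
Rps7: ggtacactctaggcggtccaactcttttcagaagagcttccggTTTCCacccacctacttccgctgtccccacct
Rpl39l: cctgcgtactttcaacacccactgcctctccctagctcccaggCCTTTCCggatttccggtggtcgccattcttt

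The run had 13 bases in Rps10 and 14 in Rpl13a, against 5 in Rps7. RefSeq start windows (250 bases before to 50 after the start) were found for 61 of the 83 genes, with 73 windows. A run of at least 7 pyrimidines between 10 bases before and 25 bases after the start was present in 46.6% of these windows, against 20.5% of all 32851 windows, 19.8% of the windows of measured genes and 17.3% of the 75 windows of mitochondrial ribosomal protein genes. CTTTCC on the sense strand within that stretch was found in 13.7% of the ribosomal protein windows, 1.55% of all windows and 1.49% of the windows of measured genes. In the whole window and on both strands, CTTTCC was found in 50.7%, against 26.6% of all windows and 26.3% of the windows of measured genes. CCGGAAG, the core bound by ETS factors such as GABP, was found in 35.6%, against 8.86% of all windows, 16.01% of the 13263 windows of measured genes and 34.7% of the mitochondrial ribosomal protein windows. AAGATGG, part of the motif of the factor YY1, was found in 15.1%, against 6.34% of all windows, 6.77% of the windows of measured genes and 17.3% of the mitochondrial ribosomal protein windows. None of the 3 motifs contains another on either strand. A match is a match of letters and says nothing of binding. The median log2 ratio of KO over WT labels was -0.14 for the 32 measured genes with a run and -0.05 for the 28 without.

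Sequencing gave 20511407 reads for the library labelled KO (93.59% aligned) and 19619928 for the library labelled WT (92.56% aligned). Levels are in FPKM (fragments per kilobase of transcript, scaled to library depth), and a gene was measured when either library gave it at least 1 FPKM, which held for 14541 genes. There is no replicate, so differences are between 2 libraries and have no test, and a gene was called higher or lower when log2 of (FPKM + 1), KO over WT, was at least 1 or at most -1. Rnf31 had 5.396 FPKM (KO) and 3.954 FPKM (WT), so the targeted gene was not lower under the KO label. An FPKM counted over the whole transcript does not say whether the deleted exons are missing. The keratinocyte markers were present in both libraries: Krt14 had 12590 FPKM in the library labelled KO, against 816 in the library labelled WT.

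Of the 83 ribosomal protein genes 82 were measured, and Rpl10l, a testis paralog of Rpl10, was listed at 0 in both libraries. None of the 82 was called higher and none lower, beside 7.59% of all measured genes called higher and 4.09% called lower (11.7% in either direction). Rpl39l lay at the limit: its log2 ratio was -1.02 with no pseudocount and -1.10 when the libraries were rescaled without their 50 most abundant genes, which also put Rps4l at -1.03. The median log2 ratio was -0.12, beside -0.08 over all measured genes. It was below 0 for 67 of the 82 genes (81.7%), beside 57.4% of all measured genes, but for 48 with scaling by the median of ratios and for 79 as shares of the FPKM sum, so the sign of a ratio this close to 0 depends on the scaling. Directions given for the groups that follow are on the deposited scale. Ratios ran from -0.98 for Rpl39l to 0.52 for Rps27, with an interquartile range of 0.21, beside 0.65 over all measured genes. Within 1.5-fold lay 79 of the 82 genes (96.3%), beside 71.9% of all measured genes and 64.0% of the 1044 other genes that reached 100 FPKM in a library. At the 1.5-fold limit, 3 genes were lower (Rpl39l, Rps4l and Rps7) and none higher, beside 13.8% of all measured genes lower and 14.3% higher.

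**Figure D1:**
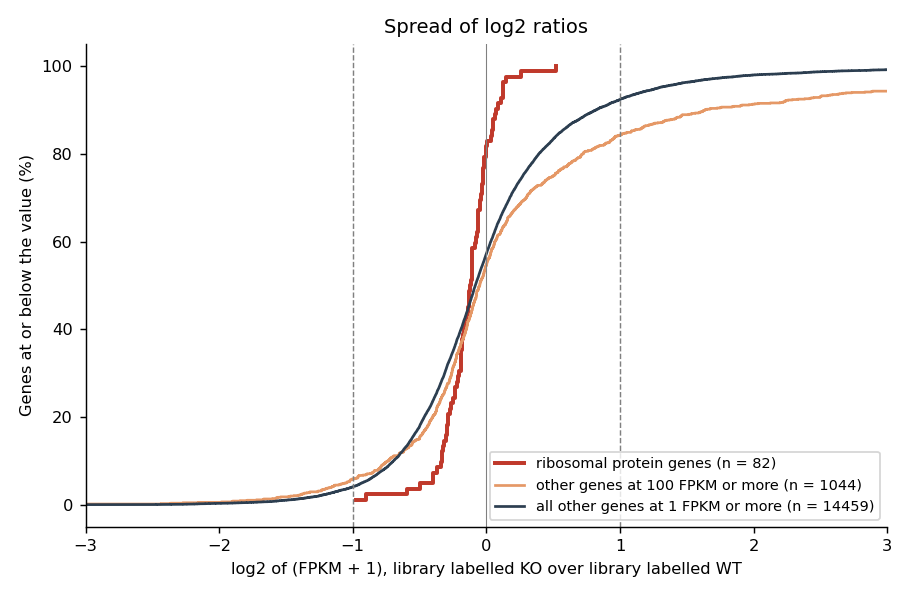
Share of genes (y axis, percent) at or below each log2 ratio of FPKM + 1, library labelled KO over library labelled WT (x axis), for ribosomal protein genes, other genes at 100 FPKM or more, and all other measured genes, with dashed lines at the 2-fold limits. The ribosomal protein curve is the steepest of the 3 and lies wholly between the dashed lines, from -0.98 to 0.52.

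The authors' deposited table gives none of the 82 tested ribosomal protein genes a q-value under 0.05, beside 96 of 15589 tested genes (0.616%). In the authors' deposited table the lowest p-value among them was 0.14735, for Rps4l, and every one of the 82 had a q-value of 0.999428. These values come from 1 library per genotype.

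Summed over the 83 genes, the level was 141387 FPKM in the library labelled KO and 158891 in the library labelled WT, a ratio of 0.890. The FPKM of all genes summed to 743133.1 in the library labelled KO and 674324.3 in the library labelled WT, a ratio of 1.10. The share of ribosomal protein mRNAs in that sum was 19.03% (KO) and 23.56% (WT). The number among the 10 most abundant genes was 4 in the library labelled KO and 8 in the library labelled WT. Among the 50 most abundant it was 23 in the library labelled KO and 33 in the library labelled WT, and among the 200 most abundant 62 (KO) and 68 (WT).

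Other genes took larger shares of the library labelled KO. The 20 markers of basal, suprabasal and wound keratinocytes summed to 6.45% of FPKM in the library labelled KO and 1.21% in the library labelled WT. Of the 5 wound keratinocyte markers all were called higher, of the 7 basal markers 5 were higher and 1 lower, and of the 8 suprabasal markers 4 were higher and 1 lower. None of these 20 was listed at 0 in either library. With the 20 markers left out of the sum, the ribosomal protein share was 20.3% in the library labelled KO and 23.9% in the library labelled WT. Markers of other cells also differed: all 7 hair follicle markers (sum 425 FPKM under the KO label, 1886 under the WT label) and all 5 melanocyte markers (205 KO, 647 WT) were called lower, and 4 of the 6 neutrophil markers were measured and called higher (sum 4672 FPKM KO with 1 of 6 listed at 0, 16.1 FPKM WT with 4 of 6 listed at 0). Higher were also 5 of 6 macrophage and monocyte markers, 1 of 6 skeletal muscle markers and the 1 measured of 6 lymphocyte markers, and 2 of 5 adipocyte markers were lower. None was called of 6 fibroblast, 4 endothelial and 5 measured erythroid markers. Over all measured genes, 7.59% were called higher and 4.09% lower. The neutrophil list includes S100a8 and S100a9, and which cells gave the RNA of the listed markers was not tested. In whole skin, fewer cells of a type and less RNA per cell cannot be told apart. The part of these differences in the ribosomal protein values was not tested.

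The order of the ribosomal protein genes was nearly the same in both libraries (Spearman rho 0.994 across 82 genes, given as a description). Their levels span a wide range and most ratios lie near 1, which alone gives a high rho. No such value was computed for other genes, so the kept order is not shown to be particular to this group. Rpl41, which encodes the smallest protein of the large subunit, was the most abundant with 10819 FPKM in the library labelled KO and 11852 in the library labelled WT. Rplp1, a protein of the stalk that recruits elongation factors, had 7462 FPKM (KO) and 8765 FPKM (WT). Rps29, a small zinc-binding protein of the small subunit, had 6990 FPKM (KO) and 6997 FPKM (WT), the closest pair of values among the 10 most abundant. Rpl13a, known in human monocytic cells for its release from the ribosome, had 6393 in the library labelled KO and 8065 in the library labelled WT. Rps15, near the decoding site, had 4408 FPKM (KO) and 5830 FPKM (WT). Rpl32, Rps26, Rps21, Rpl38 and Rpl36 followed with 3232 to 4027 FPKM in the library labelled KO and 3511 to 4477 in the library labelled WT. In the library labelled WT, Rps14 (4321 FPKM) stood among the 10 most abundant ribosomal protein genes, and in the library labelled KO it had 3068.

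**Figure D2:**
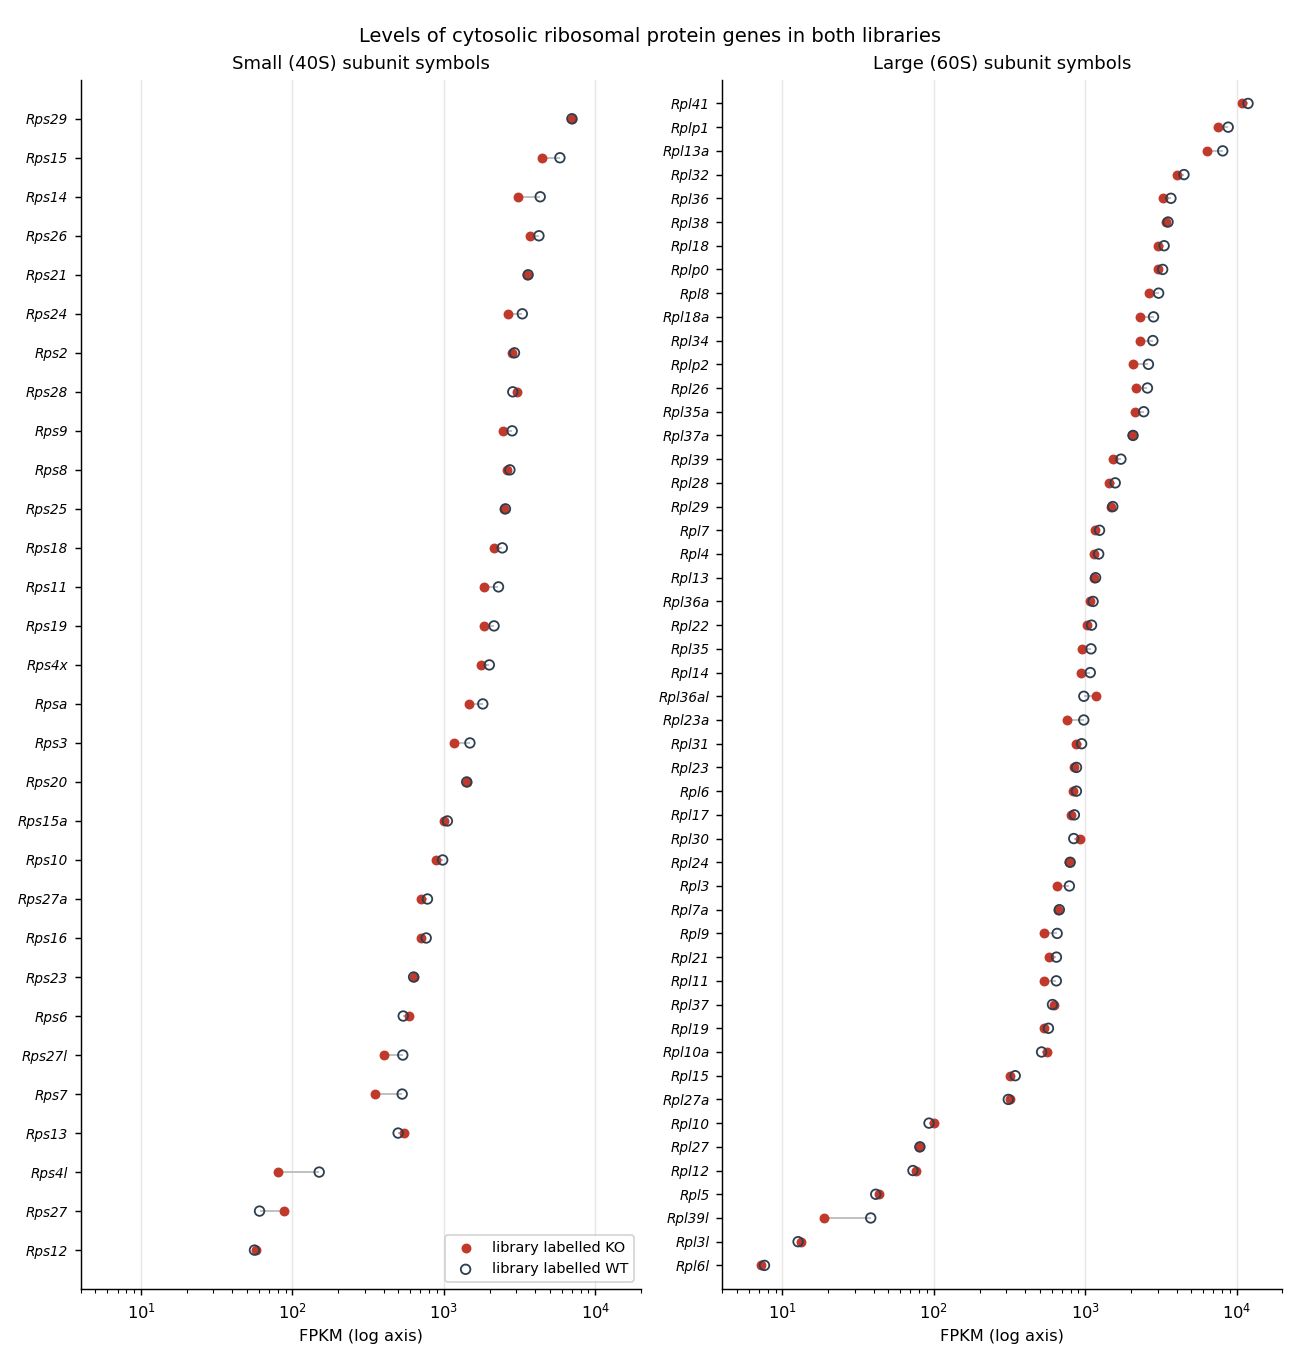
FPKM of measured small subunit genes (left, a few not shown) and large subunit genes (right) on a log axis, with filled points for the library labelled KO and open points for the library labelled WT, sorted by level under the WT label. The points of most genes nearly touch, and the widest gaps are those of Rpl39l (18.9 FPKM KO, 38.2 FPKM WT) and Rps4l (79.9 FPKM KO, 150.1 FPKM WT).

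The genes under a mean of 200 FPKM were 10 of the 82. Among them were genes of full ribosome members, such as Rpl5 with 43.3 FPKM in the library labelled KO and 41.3 in the library labelled WT, and Rps12 with 57.5 FPKM (KO) and 56.1 FPKM (WT). Much of the sequence of some of these genes also occurs elsewhere: 90.1% of the 50-base stretches of the Rps12 transcript and 92.1% of those of Rpl10 also occur in another annotated gene. Across the 82 genes, 48 shared at least 50% of their 50-base stretches with other genes, such as processed pseudogenes, and how the authors' counting shared out such reads is not stated in the labels or headers. How far shared reads set these levels was not tested. The median log2 ratio was -0.12 for these 48 genes and -0.13 for the other 34. The rank correlation of the log2 ratio with the shared percentage was 0.22, with transcript length 0.04 and with mean level -0.31, each across 82 genes of the same 2 libraries.

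The median ratio was lowest among the genes of highest level. Of the 30 genes at a mean of 2000 FPKM or more, 29 had a log2 ratio below 0, with a median of -0.19. The median was -0.11 for the 17 genes between 1000 and 2000 FPKM, -0.11 for the 25 between 200 and 1000, and 0.04 for the 10 below 200.

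**Figure D3:**
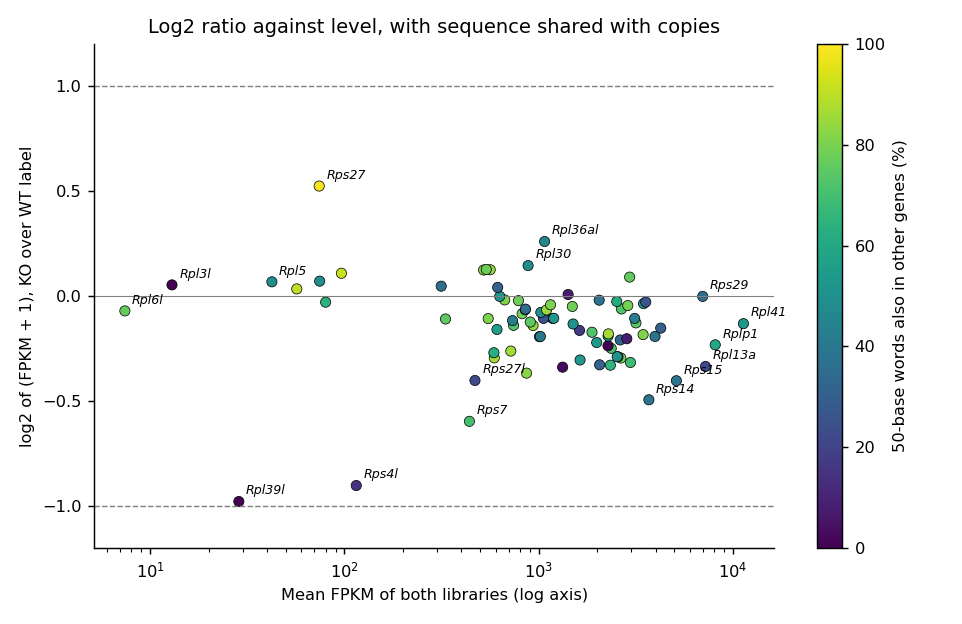
Log2 ratio of FPKM + 1, library labelled KO over library labelled WT (y axis), against the mean FPKM of both libraries (x axis, log), 1 point per ribosomal protein gene, coloured by the percentage of its 50-base stretches that also occur in other genes. At 2000 FPKM or more, 29 of 30 points lie below 0, and the 2 points farthest from 0, Rpl39l and Rps4l, lie under 200 FPKM.

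The small subunit genes had a median log2 ratio of -0.16 (n = 32, 26 below 0) and the large subunit genes one of -0.11 (n = 50, 41 below 0). By FPKM sums, the ratio was 0.885 for the small and 0.893 for the large subunit.

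Small subunit genes with the lowest ratios included Rps7, an assembly protein of the small subunit whose mouse mutants have a short tail. Rps7 had 350 FPKM in the library labelled KO and 530 in the library labelled WT, a ratio of 0.661 (95% Clopper-Pearson interval 0.636 to 0.686, counting error only, from fragments estimated from FPKM). A share of 70.3% of its 50-base stretches occurs in other genes, among them the processed pseudogene Gm9493 with 12.6 FPKM (KO) and 21.4 FPKM (WT). Rps14, which lies on the platform of the small subunit, had a ratio of 0.710 (interval 0.699 to 0.721). Rps15 had 0.756 and Rps3, which lines the mRNA entry channel and has few copies (3.0% of stretches), had 1173 FPKM in the library labelled KO and 1484 in the library labelled WT. The 9 measured genes of the decoding and mRNA entry site had a median log2 ratio of -0.19, with 8 below 0. All of these lay inside the 2-fold limits.

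Other abundant small subunit genes lay between these and 1. Rps24, a Diamond-Blackfan gene needed for pre-rRNA processing, had 2644 FPKM (KO) and 3293 FPKM (WT). Rpsa, known also as a laminin-binding protein, had 1462 FPKM (KO) and 1806 FPKM (WT). Rps2, at the mRNA entry site, had 2832 FPKM (KO) and 2923 FPKM (WT), and Rps27a, made as a fusion with ubiquitin, had 707 (KO) and 778 (WT). The KO value was the lower one in each of these 4 genes, with log2 ratios from -0.32 for Rps24 to -0.05 for Rps2. They are genes named for their role after their values were seen, so their shared direction is no separate result. Of all 32 measured small subunit genes, 26 were below 0.

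After the paralog Rpl39l, described with the paralogs, the large subunit genes with the lowest ratios were Rpl23a, which docks factors at the exit of the nascent chain tunnel, with 756 FPKM in the library labelled KO and 976 in the library labelled WT, Rpl13a, with a ratio of 0.793, and Rplp2, a stalk protein, with 2075 FPKM (KO) and 2607 FPKM (WT). The 3 stalk genes had a median log2 ratio of -0.23; Rplp0, the base of the stalk, had 3006 FPKM in the library labelled KO and 3237 in the library labelled WT. All 10 genes of the exit tunnel group were below 0, with a median of -0.12. The 2 proteins that bind 5S rRNA, and that bind Mdm2 when free of the ribosome, were Rpl5, with the values given above and a log2 ratio of 0.07, and Rpl11, which had 533 FPKM in the library labelled KO and 643 in the library labelled WT, a log2 ratio of -0.27.

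Among the other large subunit genes, Rpl3, which lies at the peptide-joining centre, had 653 FPKM (KO) and 784 FPKM (WT). Rpl4, which reaches into the exit tunnel, had 1137 FPKM (KO) and 1224 FPKM (WT), and Rpl8, next to the same centre, had 2644 (KO) and 3044 (WT). Rpl26, known to bind p53 mRNA, had 2160 FPKM (KO) and 2567 FPKM (WT), and Rpl22, which binds Epstein-Barr virus RNA, had 1020 (KO) and 1098 (WT). Rpl37a differed least of these, with 2036 FPKM (KO) and 2064 FPKM (WT). All 6 had log2 ratios below 0, from -0.26 for Rpl3 to -0.02 for Rpl37a. These too were named for their role after their values were seen, so their shared direction is no separate result. Of all 50 measured large subunit genes, 41 were below 0.

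Genes with the highest ratios stayed closer to 1. Rps27, a zinc-binding small subunit protein, had 87.6 FPKM in the library labelled KO and 60.6 in the library labelled WT, a ratio of 1.44 (interval 1.25 to 1.67). Of its 50-base stretches 98.6% also occur in Rps27rt, its retrocopy, which had 119 FPKM (KO) and 128 FPKM (WT), and the sum of both genes had a ratio of 1.09. Rpl36al, a retrogene of Rpl36a that is expressed widely, had 1169 FPKM in the library labelled KO and 976 in the library labelled WT, a ratio of 1.198 (interval 1.16 to 1.23). Rpl30 (926 FPKM under the KO label, 838 under the WT label), Rpl10a (561 KO, 514 WT), Rps13 (543 KO, 498 WT) and Rps6 (587 KO, 539 WT), the substrate of the S6 kinases, had ratios of 1.11, 1.09, 1.09 and 1.09. Rps28, Rpl10, Rpl12 and Rpl5 followed with ratios from 1.05 to 1.08. On the deposited scale the counting interval lay below 1 for 59 of the 82 genes, above 1 for 7 and held 1 for 16. Intervals were not computed for other genes, so this split has no share over all measured genes beside it. It also depends on the scaling: with scaling by the median of ratios, 48 of the 82 log2 ratios were below 0. The estimated fragments per gene and library ran from 100 to 128432. They rest on full transcript lengths, so the intervals of these short transcripts may be too narrow. The spread between animals was not measured.

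Mouse genes whose mutants alter pigment, tail or growth of the skin's pattern had a median log2 ratio of -0.02 (n = 7). Their log2 ratios ran from -0.60 for Rps7 to 0.13 for Rps6, both described above. Rps19, a small subunit assembly protein, had 1838 FPKM in the library labelled KO and 2143 in the library labelled WT. Rps20 had 1421 FPKM (KO) and 1414 FPKM (WT), and Rpl24 had 781 (KO) and 793 (WT). Rpl27a had 320.0 FPKM (KO) and 309.8 FPKM (WT), and Rpl38 had 3424 (KO) and 3511 (WT). The 21 genes of human Diamond-Blackfan anaemia, a disorder of red cell precursors caused by ribosomal protein mutations, had a median of -0.19, with 18 below 0.

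Paralogs differed from their partners in a few pairs. Rpl39l, a paralog of Rpl39 known for its role in testis, had 18.9 FPKM in the library labelled KO and 38.2 in the library labelled WT, a ratio of 0.495 (interval 0.409 to 0.600), with no stretch shared with another gene. Rpl39 had 1532 FPKM (KO) and 1716 FPKM (WT), so that Rpl39l made up 1.22% of the pair in the library labelled KO and 2.18% in the library labelled WT. Rps4l, annotated as a transcribed processed pseudogene, had 79.9 FPKM in the library labelled KO and 150.1 in the library labelled WT (ratio 0.532) and made up 4.319% (KO) and 7.002% (WT) of its sum with Rps4x. Rps27l, a p53-responsive paralog of Rps27, had 405 FPKM (KO) and 535 FPKM (WT), a ratio of 0.756. Of the sum of Rps27 and Rps27l, Rps27l made up 82.2% in the library labelled KO and 89.8% in the library labelled WT. That sum leaves out the retrocopy Rps27rt (119 FPKM KO, 128 FPKM WT), which holds 98.6% of the 50-base stretches of Rps27. The share of Rps27l in the pair therefore depends on how reads were shared between Rps27 and Rps27rt. Rpl36al made up 52.1% (KO) and 46.5% (WT) of its sum with Rpl36a. Rpl3l, a muscle paralog of Rpl3, had 13.2 FPKM (KO) and 12.7 FPKM (WT) and has no stretch in another gene, and the 6 skeletal muscle markers summed to 8121 FPKM (KO) and 7015 FPKM (WT).

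**Figure D4:**
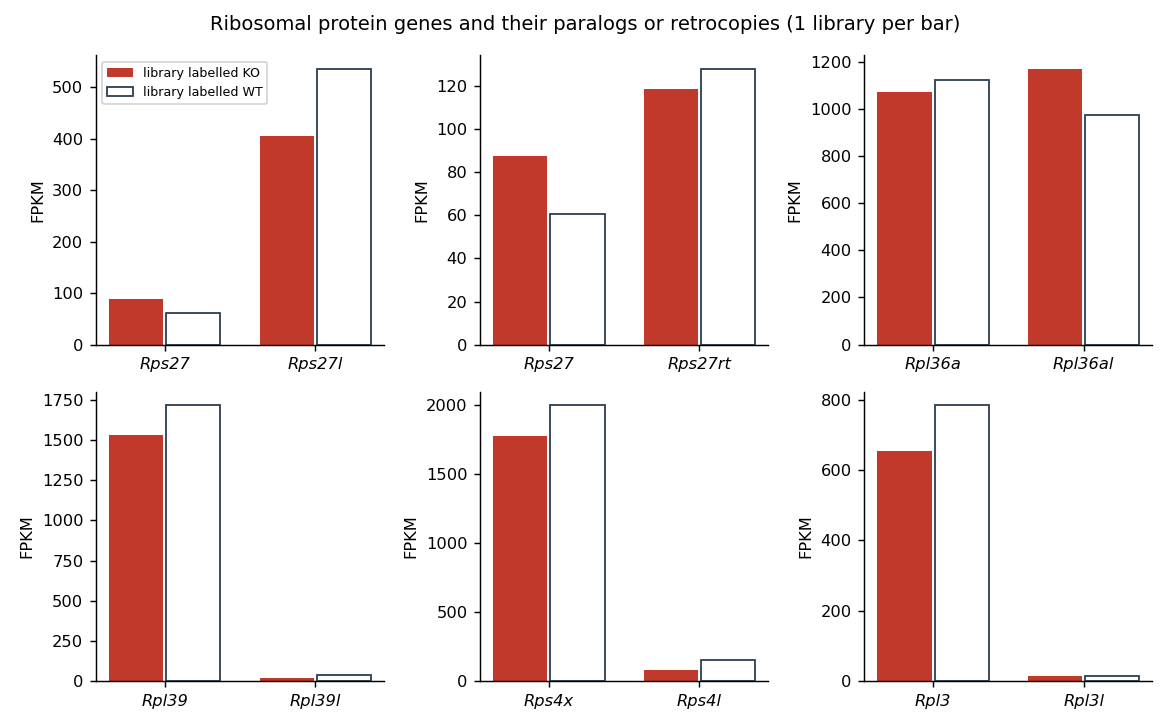
FPKM (y axis, from 0) of paralog or retrocopy pairs of ribosomal protein genes, with filled bars for the library labelled KO and open bars for the library labelled WT, 1 library per bar. Rps27 and Rps27l lie in opposite directions between the libraries, but 98.6% of the 50-base stretches of Rps27 also occur in Rps27rt. Rpl36al is above Rpl36a under the KO label (1169 FPKM against 1073 FPKM) and below it under the WT label (976 FPKM against 1124 FPKM).

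Small nucleolar RNAs guide rRNA modification. Of the 82 measured genes, 29 had an annotated small nucleolar RNA gene within their bounds on the same strand. The median log2 ratio of these 29 was -0.07, beside -0.13 for the other 53. The genes lie on 19 chromosomes, with 14 of 83 on chromosome 7.

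Other genes of the ribosome and of translation gave the following counts, beside 7.59% of all measured genes called higher and 4.09% called lower. Of the 5 measured ribosomal or ribosome-bound proteins with other symbols, none was called, with a median log2 ratio of -0.12. Among them Rpl7l1, a paralog of Rpl7, had 29.7 FPKM in the library labelled KO and 39.3 in the library labelled WT. Fau, whose product is a ubiquitin-like protein fused to a small subunit protein, had 149.9 FPKM (KO) and 156.3 FPKM (WT). Rack1, a scaffold on the small subunit, had 1295 FPKM (KO) and 1407 FPKM (WT). Rps3a1, also outside the symbol pattern and not among the 5, had 1181 FPKM (KO) and 1405 FPKM (WT). Of 24 elongation factor and other TOP genes, none was called and 20 were below 0 (median -0.14), among them Hnrnpa1 with 196.1 FPKM (KO) and 288.7 FPKM (WT) and Eef1a1 with 3420 (KO) and 3604 (WT). Of 29 initiation factors none was called (median -0.07), with Eif6, which keeps the subunits apart, at 353 FPKM in the library labelled KO and 190 in the library labelled WT. Of 20 cytosolic aminoacyl-tRNA synthetases none was called (median -0.06). Of 78 mitochondrial ribosomal proteins none was called, 64 were below 0, and the median was -0.19.

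Ribosome assembly factors, which process pre-rRNA, were not called in any of 63 genes, and 39 lay above 0 (median 0.09, but -0.03 when the libraries were rescaled without their 50 most abundant genes and -0.04 as shares of the FPKM sum). The 11 measured noncoding snoRNA hosts had a median of 0.24, with 10 above 0 and none called. Of 82 measured genes with a subunit symbol followed by -ps (of 276 in the table), 2 were called higher and 5 lower, with a median of -0.20. Over all measured genes the shares were 7.59% higher and 4.09% lower. In the Myc family, regulators of ribosome genes, 1 of 10 was called higher and 3 lower, beside the same shares. Mxd1, an antagonist of Myc, had 26.0 FPKM in the library labelled KO and 7.76 in the library labelled WT, while Mycn (5.25 KO, 26.3 WT), Mycl (17.7 KO, 57.5 WT) and Mxd3 (11.8 KO, 25.8 WT) were lower. Myc itself had 36.1 FPKM in the library labelled KO and 18.6 in the library labelled WT, a log2 ratio of 0.92, just inside the limit. Of 20 genes of mTORC1 and TOP mRNA control none was called (median -0.05), and Larp1 had 42.5 FPKM (KO) and 39.4 FPKM (WT). Of 14 measured p53 genes and targets 1 was called higher, beside 7.59% of all measured genes. It was Pmaip1, a promoter of apoptosis, with 13.95 FPKM (KO) and 3.51 FPKM (WT). Mki67, a marker of cycling cells, had 13.72 FPKM (KO) and 24.99 FPKM (WT), and none of the 10 proliferation markers was called (9 below 0, median -0.68).

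**Figure D5:**
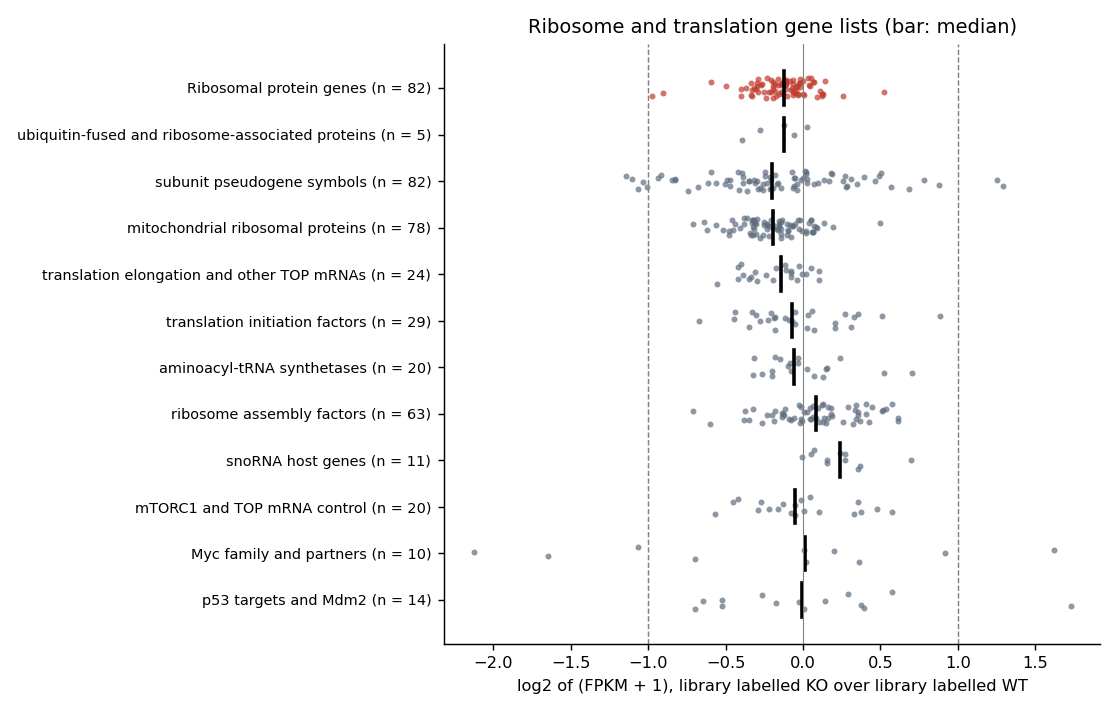
Log2 ratio of FPKM + 1, library labelled KO over library labelled WT (x axis), 1 point per measured gene, for ribosomal protein genes and lists of ribosome and translation genes, with a bar at each median and dashed lines at the 2-fold limits. Medians run from -0.20 for the -ps symbols to 0.24 for the snoRNA hosts, and the ribosomal protein points spread from -0.98 to 0.52.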

How the data were processed

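The submitters' processing notes name cutadapt (1.9.1), HISAT2 (2.0.4), Cufflinks (2.2.1) and GRCm38. Per the file headers, the deposited table is a Cuffdiff comparison with an FPKM per gene and library, computed by the authors. The p-value and q-value come from the authors' own comparison, per the file headers. A deposited sheet gives the authors' read count per library and the fraction aligned. Strand use and the handling of shared reads are not stated in the labels or headers.

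From these values log2 of (FPKM + 1) ratios were computed with Python 3.11.15, pandas 2.3.3 and scipy 1.17.1. Symbols turned into dates (26) were restored by gene identifier. Fragments were estimated from the step between low FPKM values, of which 83.6% of 298 in the library labelled KO and 89.5% of 285 in the library labelled WT lay within 0.25 of a whole step. The step was fitted to these same values, so the percentages are no independent check of it. By this estimate an FPKM of 1 over 2 kb equals 32.0 (KO) and 30.4 (WT) fragments. The step came from genes with 1 transcript of at least 3000 bases, and fragments from full transcript lengths. The ribosomal protein transcripts are shorter (median 680.5 bases), and FPKM of short transcripts rests on a shorter effective length. Their fragments may therefore be overestimated and their intervals too narrow. Intervals cover counting error only, not how reads were shared between copies. The 50-base stretches of 1 transcript per ribosomal protein gene were searched for in the GENCODE transcripts of other genes of GRCm38. That transcript was the shortest with a consensus coding region, otherwise the shortest coding one, otherwise the longest of any type. Its length also set the estimated fragments.

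Named genes are the 10 highest and 10 lowest ratios, the 10 most abundant in each library, set subgroups, and list genes past 2-fold or with the largest ratios. Genes named for their copies, and a few of known role, were added after their values were seen. The genes and lists were chosen with earlier results of these data known. Alternatives changed the pseudocount, floor, fold limit and scaling. Some genes are counted in the totals but not reported here by name.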

Additional observations from a re-analysis of the deposited data

How the results depend on the processing

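No paired analysis was possible because there is 1 library per genotype, and no replicate could be left out. A scaling shifts nearly all log2 ratios by the same amount, so it moves the median of the ribosomal protein genes and leaves their spread as it was. Without the 50 most abundant genes it was -0.25, and the median of all genes moved by -0.12. With median of ratios it was -0.023, with 48 of 82 genes below 0, and all genes moved by 0.09. On genes neither mitochondrial nor ribosomal it was -0.36, and all genes moved by -0.21. On genes of at least 1 kb it was -0.22, and all genes moved by -0.08. As a share of the FPKM sum, chosen after seeing the data, it was -0.26, with 79 of 82 genes below 0, and all genes moved by -0.12. Over these 5 scalings, in the order above, the small subunit median was -0.29, -0.06, -0.39, -0.25 and -0.30, and the large subunit median was -0.24, -0.0095, -0.34, -0.20 and -0.25. Under these scalings 54.4%, 71.2%, 45.1%, 57.4% and 53.4% of all called genes were higher, beside 65.0% as reported. The number of ribosomal protein genes 2-fold lower was 0 as reported, 1 with a pseudocount of 0.1, with none and on genes of at least 1 kb, 2 without the 50 most abundant genes, on genes neither mitochondrial nor ribosomal and as a share of the FPKM sum, and 3 at 1.5-fold; none was 2-fold higher under any of these. The ribosomal protein share was 19.6% (KO) and 24.3% (WT) without mitochondrial genes, 23.66% (KO) and 27.02% (WT) without the 50 most abundant other genes, and 20.3% (KO) and 23.9% (WT) without keratinocyte markers. With each FPKM multiplied by the length of the longest annotated transcript of its gene, the share was 10.9% (KO) and 13.1% (WT). With median of ratios the list medians of initiation factors (0.03), mTORC1 genes (0.04), synthetases (0.04) and p53 genes (0.09) turned above 0, and the Myc family median was -0.11 without the 50 most abundant genes. The cause was not tested. In 2 further settings chosen after seeing the data, the median was -0.12 without the genes annotated as pseudogenes and -0.13 without those sharing at least 50% of their stretches. With 1 library per genotype, the spread between animals is unknown.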
